A study of Mus musculus with 7 samples.

Results

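The Pax genes encode a family of 9 transcription factors, Pax1 to Pax9, and were read here in cells sorted from mouse skin. Members were the probes whose transcript accession maps to one of these gene symbols. That gave 14 probes in 33 spots for all 9 genes, of 28026 probes with a gene name on the array. The family was chosen by the processed signal of Pax2, whose difference between the groups was already known, so the members' values are given as a description and without a p-value.

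The study asked, by its title, what activating β-catenin in the dermal sheath does to hair growth and skin fibrosis. The dermal sheath is the mesenchymal layer around the hair follicle, and β-catenin carries the Wnt signal into the nucleus. Both groups were cells positive for the reporter YFP and negative for CD34, alkaline phosphatase (ALP) and integrin α8, sorted from dorsal skin at postnatal day 15, and 10 ng of RNA was amplified and read in 1 colour. The control group had 3 arrays, of 1, 1 and 2 mice, and the β-catenin activation group, labelled cΔex3, had 4 arrays, of 1, 2, 2 and 1 mice. The driver of the allele, the strain and the sex are not given in the sources used here. Mice pooled on an array count once.

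Pax proteins bind DNA through the paired domain that gives the family its name, and some carry a homeodomain as well. They are best known from the embryo, where each marks a few tissues: Pax2 and Pax8 the kidney and urogenital tract, Pax8 also the thyroid, Pax5 the B lymphocyte, Pax3 and Pax7 muscle precursors and neural crest, Pax1 and Pax9 the sclerotome and thymus, and Pax4 and Pax6 the pancreatic islet and, for Pax6, the eye. In skin, Pax3 is known from the melanocyte lineage.

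The arrays did not carry only the transcripts that their labels name. On the 3 control arrays a list of 20 hepatocyte markers was above background throughout, with a summed level of 6510 to 8430 times the array's 75th percentile. On the cΔex3 arrays it summed to 63.2 to 254, and 20 of 20 members were lower (limma, adjusted p under 0.05). A list of 15 adipocyte markers ran the other way, from 606 to 848 on control arrays and from 1150 to 2530 on cΔex3 arrays. Of its members 12 were higher and 2 lower. The 2 lower, Pck1 and Acsl1, were the brightest of the list on all 3 control arrays, at mean log2 values of 8.16 and 8.04 relative to that percentile. Adipoq, Plin1 and Retn averaged −3.86, −4.75 and −2.53 there and were higher by 11.43, 10.02 and 10.01 (log2). The sums therefore understate the change of these 3 genes. Of 10 dermal sheath and smooth muscle markers 8 were higher and 1 lower, with sums of 32.0 to 44.8 and 102 to 226. All 12 dermal fibroblast markers were higher. In such bulk samples fewer cells of a type and less RNA per cell cannot be told apart. The 75th percentile of the processed signal, to which every log2 value below is relative, was 756.1 to 906.7 on control and 1348 to 2160 on cΔex3 arrays, so an equal signal reads lower on a cΔex3 array. Probes well above background made up 68.5% to 70.7% and 68.0% to 82.0%. The number of arrays limits the precision of every difference.

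Of the 9 members, 7 were well above background on at least 3 of the 7 arrays and were fitted, and Pax4 and Pax6 were not. Pax2, Pax3, Pax7 and Pax8 were above background on all 7 arrays, Pax5 on 6, and Pax1 and Pax9 on 4. Over all genes, 24.0% were called higher and 29.0% lower, 53.1% in either direction. The balance depended on the scaling, with 5166 higher and 4308 lower by quantile normalisation, 4928 and 4163 in the deposited values and 3474 and 6277 with normexp (a background model), against 4333 and 5236. In the same fit Pax8 was called higher and Pax2, Pax5 and Pax7 lower. Since this contrast chose the family, nothing is read from that count or, here and below, from any member's call. For 4 of the 7 fitted members (Pax2, Pax5, Pax7 and Pax8) every cΔex3 array lay on one side of every control array, as for 58.7% of all genes. Per array, 5 to 7 of the members were above background on control and 4 to 7 on cΔex3 arrays.

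**Figure D1:**
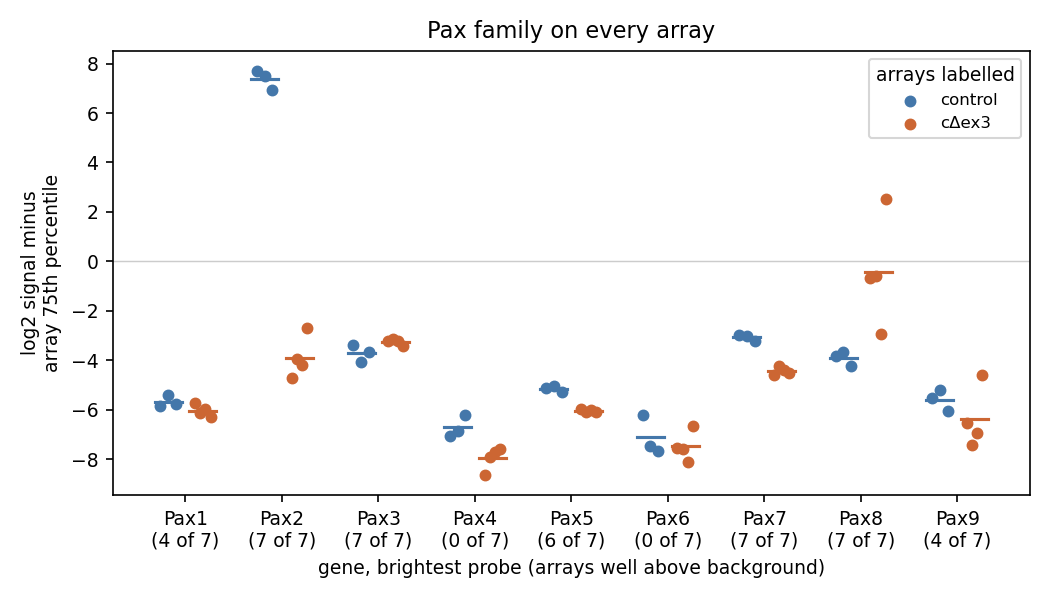
Log2 processed signal minus the array's 75th percentile for the brightest probe of each Pax gene, with 1 point per array, a bar at the group mean (3 control and 4 cΔex3 arrays), and the number of arrays well above background under each name. Pax2 on the control arrays lies at 6.93 to 7.70 and on no cΔex3 array comes near these values, and Pax8 on the cΔex3 arrays has the widest range, from −2.93 to 2.51.

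Pax2, which is needed for kidney, ear and optic nerve development, was read by 2 probes that gave different pictures. The probe A_55_P2075127 had a processed signal of 159000, 137000 and 110000 on control arrays 1 to 3. On cΔex3 arrays 1 to 4 it had 70.0, 88.1, 91.5 and 330.5. The groups were far apart: the lowest control signal was 334 times the highest cΔex3 signal, while the signal varied 1.44-fold within control and 4.72-fold within cΔex3 arrays. Relative to the 75th percentile it stood at 7.38 ± 0.40 (SD, n = 3) and −3.89 ± 0.85 (SD, n = 4), a difference of −11.26 ± 0.47 (SE), or 2460-fold lower on the cΔex3 arrays. The probe was well above background on all 7 arrays.

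The other Pax2 probe, A_55_P2148518, had a signal of 10.9, 5.09 and 8.03 on the control arrays and was well above background on 0 of 3. On the cΔex3 arrays it had 27.0, 10.0, 8.81 and 63.1 and was above background on arrays 1 and 4. It was thus dim on every array, its group ranges overlapped, and its brightest value was on the cΔex3 array where the first probe was also brightest among the cΔex3 arrays. Relative to the 75th percentile it stood at −6.72 ± 0.55 (SD, n = 3) and −6.46 ± 1.09 (SD, n = 4), and it was not fitted. The bright Pax2 signal of the control arrays was therefore seen by 1 of the gene's 2 probes.

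**Figure D2:**
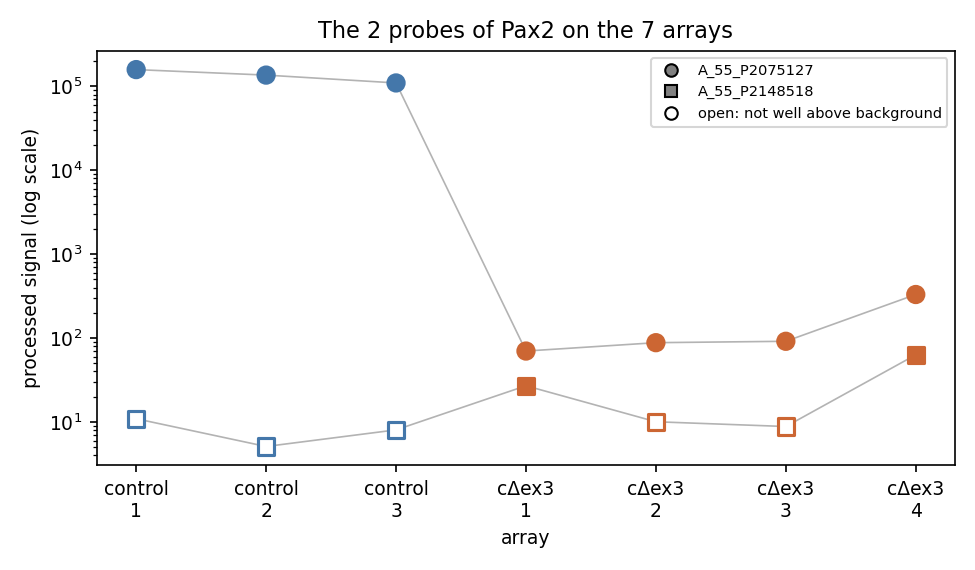
Processed signal (log scale) of both Pax2 probes on each array, with circles for A_55_P2075127, squares for A_55_P2148518 and open symbols where the spot was not well above background. The circles fall from 110000 or more on control arrays to 330.5 or less on cΔex3 arrays, while the squares stay at or below 63.1 throughout.

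Disagreement of this kind in detection was not confined to Pax2. The 500 brightest named probes of the control arrays held 195 genes with several probes. Of these genes 9, Pax2 among them, had their dimmest probe above background on no control array. In size, the Pax2 disagreement was large. Pax2 chose this family by its bright signal, so the ranks given here follow from that choice and are no separate support. The group differences of its 2 probes lay 11.53 apart on the log2 scale, the widest of 5681 genes with several probes (median 0.51). Only 2 of these genes reached 10. On control arrays the 2 probes lay 14.1 apart, rank 11 of these genes (median 2.57). All probes entered these ranks, also those near background, as the dimmer Pax2 probe was on the control arrays.

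The bright spot itself carried no outlier mark on any array. Its median intensity was 108600 to 155000 on control arrays over a local background of 31 to 35, its spot extent as the scanner software measured it was 23.2 to 28.5 against an array median of 26.7 to 27.1, and 0 spots of any array were saturated. The 6 spots around it had medians of 17.5 to 22.1 on the control arrays and did not exceed 953. In the authors' deposited log2 values it stood at 17.39, 17.08 and 16.86 on control arrays and at 6.85, 7.31, 7.23 and 7.96 on cΔex3 arrays, and the other probe at 6.21 to 6.68 on all 7. Where in the gene each probe lies was not analysed here, because probe sequences were not used.

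Hepatocyte transcripts and the bright probe were high on the same 3 arrays, and their part in this signal was not tested. By the positions in the file headers, within the upper row of the slide (2 control arrays, 1 cΔex3 array) the difference of the bright probe was −12.33, and within the lower row (1 control, 3 cΔex3 arrays) −10.53. The names of the deposited files give another position for 4 of the 7 arrays and another slide number for all 7, and by those names each row held 1 group, so that row and group could not be told apart. Every value by row here rests on the headers. The 5 genes whose pattern over the 7 arrays was most like it were Btnl1, Gckr (the glucokinase regulator), Hrg (a plasma glycoprotein), Mep1b (a meprin protease subunit) and C8g (a complement component), with Pearson's r from 0.999 to 1.000. A likeness of this kind was common: 350 of 16015 genes exceeded 0.99 and 2078 exceeded 0.95. Hrg differed by −8.89 ± 0.40 (SE; limma, adjusted p = 1.25e-05), Gckr by −9.11 (adjusted p = 1.28e-05) and C8g by −7.26 (adjusted p = 1.42e-05), with its other probe at −5.46. The fall of Btnl1 was smaller, at −1.65 (adjusted p = 0.000191). Mep1b, above background on 0 cΔex3 arrays, was at least 6.18-fold lower (adjusted p = 2.12e-05). That bound did not hold with normexp, where Mep1b differed by −1.77 on the log2 scale, or in the deposited values (−1.14). The Btnl1 signals, 60.7 to 71.9 on control and 34.1 to 63.9 on cΔex3 arrays, overlapped. All these values come from the same 7 arrays, and r says nothing of shared function or control. Genes picked for likeness to a member whose values split the groups, here and below, share its direction by that choice. Their adjusted p is therefore no separate test.

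Pax2 lies on the plus strand at chr19:44746601-44838269 of GRCm38.p6, with 3 transcription starts in the RefSeq promoter table. Of the 3 tested genes on either side, the neighbours Sec31b (0.08 ± 0.31 SE; adjusted p = 0.848), Ndufb8 (−0.44; adjusted p = 0.172), Hif1an (0.23; adjusted p = 0.443) and Slf2 (0.39; adjusted p = 0.502) did not pass the threshold, and the directions of Sec31b, Ndufb8 and Hif1an depended on the setting. Mrpl43, a mitochondrial ribosome gene, was lower by −1.02 (adjusted p = 0.00546), a call lost with quantile normalisation and in the deposited values. Its signals, 30100 to 36900 on control and 27600 to 45100 on cΔex3 arrays, overlapped. Sema4g, a semaphorin gene, had signals of 9940, 10800 and 7250 on the control arrays and 133, 102, 113 and 301 on the cΔex3 arrays. No cΔex3 value came near a control value, and the difference was −7.07 ± 0.33 (SE; adjusted p = 1.5e-05), the farthest from 0 among these 6 neighbours.

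The promoter sequences of RefSeq (GRCm38.p6) held 10 starts for 7 of the 9 members. Pax2 is shown because its 3 starts differ in base composition, and Pax8 because it was the other member with a wide range of signal. Each line is the 60 bases just upstream of a start, 5′ to 3′ on the gene's strand, with CpG pairs in capitals.
Pax2 start 1, chr19:44746541-44746600: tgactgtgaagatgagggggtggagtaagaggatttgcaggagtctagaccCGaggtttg
Pax2 start 2, chr19:44755692-44755751: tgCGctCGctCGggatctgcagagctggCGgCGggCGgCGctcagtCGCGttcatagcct
Pax2 start 3, chr19:44756846-44756905: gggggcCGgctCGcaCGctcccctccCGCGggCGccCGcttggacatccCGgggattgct
Pax8, minus strand, chr2:24475600-24475659: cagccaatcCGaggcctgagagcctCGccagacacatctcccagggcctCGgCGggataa
Over 250 bases upstream the Pax2 starts had 5, 20 and 25 CpG pairs and 52.8%, 60.8% and 72.8% GC, against a median of 6 pairs and 52.4% over all promoters. Pax8 had 6 pairs and 60.4%. The same 250 bases were searched on both strands for CAAAGTCCA, a site of hepatocyte nuclear factor 4, and for TATAAA, the TATA box. Of 32841 promoters 0.384% held the first and 12.4% the second, and of the 10 Pax promoters 0 held either. This says only that these letters are not in these windows.

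Pax8, the Pax gene of thyroid follicular cells, kidney tubules and the Müllerian tract, was the member that varied most among the cΔex3 arrays. Its single probe had a signal of 54.4, 58.8 and 48.7 on the control arrays and of 1170, 906, 218 and 12300 on the cΔex3 arrays. All cΔex3 values lay above all control values, the lowest being 3.71 times the highest control signal, but they spanned 56.4-fold among themselves against 1.21-fold among control arrays. Relative to the 75th percentile the means were −3.90 ± 0.28 (SD, n = 3) and −0.41 ± 2.23 (SD, n = 4), a difference of 3.49 ± 1.11 (SE). Within the upper slide row it was 3.08 and within the lower row 3.89. The difference was 2.52 without cΔex3 array 4 and 4.33 without cΔex3 array 3. The call was lost without any 1 of control arrays 1, 2 and 3 and cΔex3 arrays 1 and 2, with the slide row as a block, with normexp (2.58) and in the deposited values (2.97).

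Among the cΔex3 arrays Pax8 was lowest on array 3 and highest on array 4, and other genes ran the same way. The most like over the 7 arrays were Cited4 (r = 0.994), a transcriptional coactivator gene, Gm20878 (0.993), Rgs11 (0.992), a regulator of G protein signalling, Flywch2 (0.99) and Inava (0.989). Only 3 of 16015 genes exceeded 0.99 and 94 exceeded 0.95. Cited4 rose by 2.96 (limma, adjusted p = 0.0438), Gm20878 by 1.18 (adjusted p = 0.0279) and Rgs11 by 1.84 (adjusted p = 0.0492), and these calls were lost in 9, 6 and 11 of 18 other settings. Flywch2, at 1.28 (adjusted p = 0.0644), and Inava, at 3.43 (adjusted p = 0.0566), did not pass.

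Cdh16, a cadherin gene of kidney tubules and thyroid known to depend on Pax8, stood at −4.90, −3.84 and −4.17 on the control arrays and at 3.37, 3.53, 1.74 and 4.82 on the cΔex3 arrays. It too was lowest on cΔex3 array 3 and highest on array 4, and differed by 7.67 ± 0.68 (SE; limma, adjusted p = 0.000168). Emx2, a homeobox gene of the urogenital ridge, was above background on 0 control arrays and at −1.72, −2.14, −3.35 and 0.93 on the cΔex3 arrays, at least 17.5-fold higher (adjusted p = 0.00134). Epcam, an epithelial adhesion gene, was at −0.75, −0.54, −3.03 and 1.38 and higher by 3.60 (adjusted p = 0.018). These 3 genes were picked after their values had been seen.

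Marker lists of other epithelia also varied among the cΔex3 arrays, and those of kidney, epididymis and bile duct had their highest sum on array 4. The 16 kidney epithelial markers, Cdh16 among them, summed to 18, 17.8, 5.68 and 36.1 on cΔex3 arrays 1 to 4 and to 2.79 to 3.42 on control arrays, with 3 members higher and 6 lower of 12 tested and with Slc12a1, Slc12a3, Calb1 and Cldn16 above background on 0 cΔex3 arrays. Cdh16 alone gave 10.4, 11.5, 3.34 and 28.2 of these sums and Lrp2, the endocytic receptor megalin, 6.29, 4.66, 1.20 and 5.34. Without these 2 genes the list summed to 1.33, 1.58, 1.15 and 2.54, below the 2.70 to 3.26 of the control arrays. The 14 epididymis markers summed to 1.70, 48.1, 265 and 913 and to 3.41 to 4.66, with 2 higher and 1 lower of 9 tested. The 9 bile duct markers summed to 6.15, 7.53, 4.94 and 10.2 and to 2.99 to 5.34, with 3 higher and 3 lower of 8 tested. The sum of the 8 keratinocyte markers ran otherwise, at 40.3, 55.8, 70.4 and 30.6, highest on array 3 and lowest on array 4. On control arrays it was 3.94 to 4.73, and 2 were higher and 1 lower of 7 tested. Itga6, an integrin gene, was the brightest tested member on each cΔex3 array, at log2 values of 5.09, 5.66, 6.00 and 4.18. The genes Krt5, Krt14, Krt15, Krt10 and Lor were instead highest on array 4, Krt5 at −3.38, −3.14, −2.19 and 2.30. Trp63 was highest on array 1. Over all genes, 24.0% were higher and 29.0% lower. The part of epithelial cells in the Pax8 signal was not tested.

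**Figure D3:**
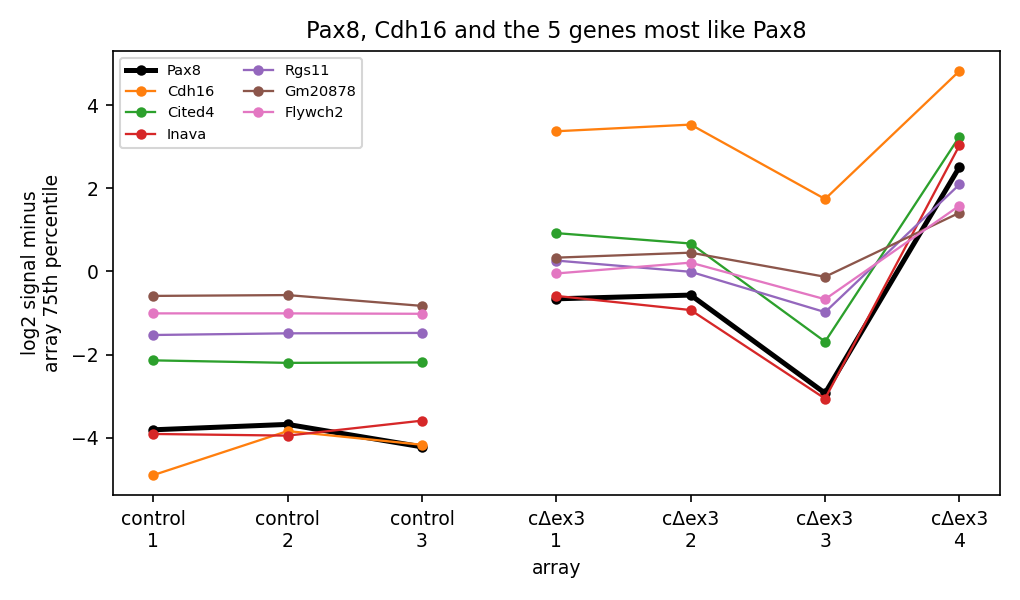
Log2 processed signal minus the array's 75th percentile of Pax8 (thick black line), Cdh16 and the 5 genes with the highest correlation to Pax8, on each array. All 7 lines reach their lowest cΔex3 value on array 3 and their highest on array 4, where Pax8 is at 2.51 and Cdh16 at 4.82.

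Pax5, the factor that commits cells to the B lymphocyte lineage and the last member of the Pax2, Pax5 and Pax8 group, was dim. Its brighter probe had a signal of 21.7, 23.0 and 23.1 on control arrays and 29.7, 19.6, 26.1 and 32.1 on cΔex3 arrays, above background on 6 of 7. These signals overlapped. Set against the 75th percentile the values were −5.16 ± 0.13 (SD, n = 3) and −6.03 ± 0.07 (SD, n = 4) and did not overlap, a difference of −0.88 ± 0.16 (SE) that was −0.16 in the deposited values. Its other probe was above background on 0 arrays. The genes most like Pax5 over the 7 arrays were Olfr1441, Gnai3, Rgs16, Pxmp2 and Zranb1 (r = 0.997 to 0.998), where 115 of 16015 genes exceeded 0.99 and 1802 exceeded 0.95. All 5 fell, from Rgs16, a regulator of G protein signalling, by 6.31 (limma, adjusted p = 3.91e-05) to Gnai3, a G protein subunit, by 0.66 (adjusted p = 0.00817), and the Gnai3 call was lost in 3 of 18 other settings. The Gnai3 signals, 8620 to 9470 on control and 9060 to 14700 on cΔex3 arrays, overlapped, as did those of Zranb1. The shared direction follows from the choice by likeness and is no separate test.

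Pax7, a marker of muscle satellite cells, had a signal of 98.3, 93.2 and 97.6 on control arrays and 77.1, 72.0, 78.7 and 94.5 on cΔex3 arrays. The group ranges of the signal overlapped by a single array, cΔex3 array 4. Relative to the 75th percentile the means were −3.06 ± 0.14 (SD, n = 3) and −4.43 ± 0.16 (SD, n = 4), a difference of −1.37 ± 0.17 (SE). The mean signal itself was 0.836 times that of the control arrays, and the percentile subtracted was higher on every cΔex3 array. The genes most like Pax7 were Mab21l2, Olfr549, C1qbp, Pcdhb12 and Gm4736 (r = 0.998 each), where 210 of 16015 genes exceeded 0.99 and 2324 exceeded 0.95. They fell too, from Olfr549 by 2.37 (limma, adjusted p = 0.000122) to Gm4736 by 1.02 (adjusted p = 0.00146). The Gm4736 signals, 237 to 267 on control and 226 to 313 on cΔex3 arrays, overlapped, as did those of Pcdhb12. That these genes fell follows from the choice by likeness and is no separate test.

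Pax3, which acts in melanocyte and muscle precursors, was read by 2 probes. The brighter had a signal of 74.0, 45.3 and 71.3 on control arrays and 199, 152, 181 and 204 on cΔex3 arrays, with no overlap of the signals. Relative to the 75th percentile the groups overlapped, at −3.70 ± 0.35 (SD, n = 3) and −3.24 ± 0.11 (SD, n = 4), a difference of 0.46 ± 0.21 (SE) that turned to −0.04 with normexp. The other probe, printed in 10 spots, had means of 2.96 to 5.63 and was above background on 0 arrays. Single spots of it reached 38 on cΔex3 array 2 and 75 on cΔex3 array 3 and carried the outlier mark, so they were left out. The genes most like the brighter probe were Myom3 (r = 0.991), Slu7 (0.986), Sik1 (0.975), Phlda3 (0.972) and Ccdc149 (0.971), where 1 of 16015 genes exceeded 0.99 and 7 exceeded 0.95. Phlda3 rose by 3.32 (limma, adjusted p = 0.0238), a call lost in 5 of 18 other settings. Myom3, a sarcomere gene, at 2.01 (adjusted p = 0.0518), Slu7 at 0.57 (adjusted p = 0.0735), Sik1 at 0.71 (adjusted p = 0.121) and Ccdc149 at 0.63 (adjusted p = 0.105) did not pass.

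Pax1 and Pax9, the sclerotome and thymus members, lay near the limit of detection. The Pax1 probe, in 10 spots, had means of 13.7, 18 and 17 on control arrays and 35.2, 19.8, 26.8 and 27.9 on cΔex3 arrays, above background on 1 of 3 and 3 of 4. Its difference was −0.37 ± 0.20 (SE), or −0.05 in the deposited values. Single spots of Pax1 on 1 array ranged from 9.22 to 27.1 (cΔex3 array 2), a spread as wide as that between arrays. The brighter Pax9 probe had 16.5, 20.5 and 13.6 and then 19.8, 7.79, 13.5 and 89.2, above background on 2 of 3 and 2 of 4, with a difference of −0.78 ± 0.65 (SE). Its signal on cΔex3 array 4 lay above that of the other 6 arrays. That array also had the brightest cΔex3 signal of both Pax2 probes and of Pax8.

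Pax4 and Pax6, the islet and eye members, did not count as above background on any array. The Pax4 signal was 4.65 to 12.3, and the brighter Pax6 probe, in 2 spots, ranged from 4.41 to 30.1, highest on cΔex3 array 4 where 1 of its 2 spots was above background. Negative control spots had a median of 2.91 to 5.42 on the 7 arrays. Pax6os1, the antisense transcript beside Pax6, was lower by −1.66 (limma, adjusted p = 0.000939), above background on 3 control and 2 cΔex3 arrays. Its signals, 36.6 to 52.5 on control and 21.3 to 40.7 on cΔex3 arrays, overlapped. Paxx, a DNA repair gene that shares only the name, differed by 0.47 (adjusted p = 0.247) with its brightest probe and by −0.82 (adjusted p = 0.00489) with another, so its direction is not settled.

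The best known partners of Pax proteins outside the family are the Eya, Dach and sine oculis proteins, a network of transcription factors and cofactors first worked out with the Pax6 homologue of the fly eye. Of 12 such genes 10 were tested, and 5 (50%) were higher and 1 (10%) lower, beside 24.0% and 29.0% of all genes. In either direction 53.1% of all genes were called. The median difference was 1.82 against −0.08 over all genes. The median of all genes was 0.13 with quantile normalisation, 0.11 in the deposited values and −0.22 with normexp. Eya2, a phosphatase and transcriptional coactivator, stood at −3.40, −4.06 and −4.21 on control arrays and at 2.01, 3.31, 3.04 and 2.04 on cΔex3 arrays. No array overlapped, and the rise was 6.49 ± 0.40 (SE; limma, adjusted p = 3.94e-05).

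Dach1, a corepressor, rose by 3.89 (limma, adjusted p = 0.000434; its other probe by 3.85), Six4 by 3.15 (adjusted p = 0.00121) and Six5 by 1.49 (adjusted p = 0.00125). Eya1 went the other way. Its values of 8.45, 8.43 and 7.08 on control arrays put it above all cΔex3 arrays, at 4.55, 5.77, 5.17 and 4.05, and it fell by 3.10 ± 0.51 (SE; adjusted p = 0.00232). Dach2 and Eya3 did not pass, at 2.14 and −0.09. Eya1, Eya2, Dach1, Six4 and Six5 stayed past the threshold in each of the 18 other settings.

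**Figure D4:**
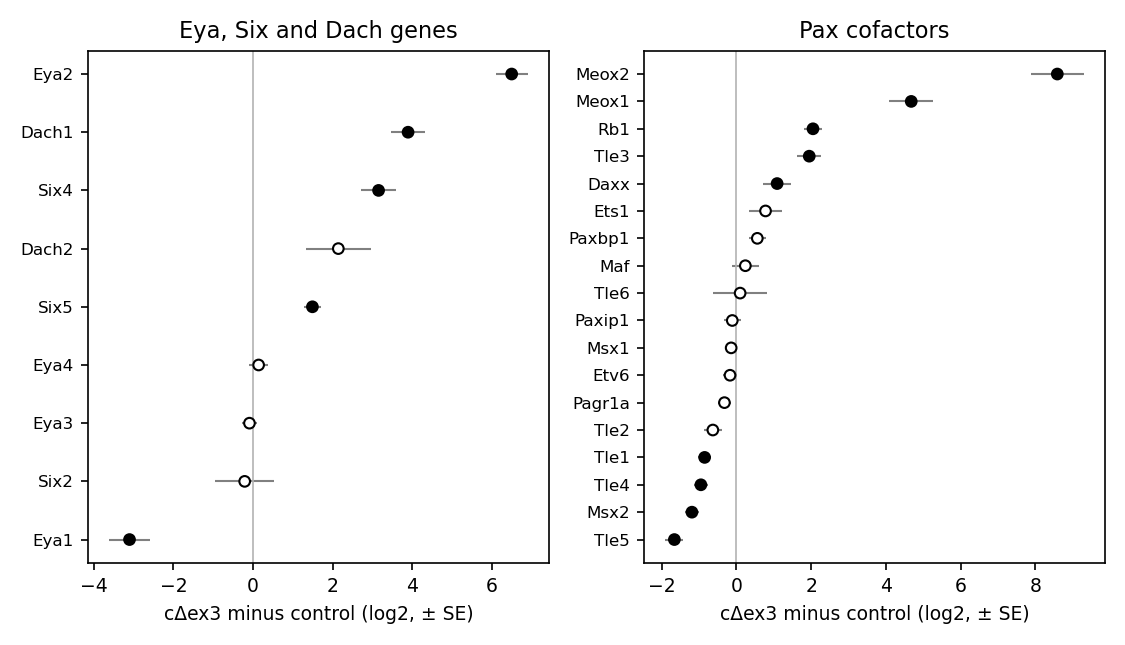
Difference of cΔex3 minus control (log2, points with SE bars) for tested Eya, Dach and sine oculis genes (left) and the tested Pax cofactors (right), with filled points at a limma adjusted p under 0.05. The left panel runs from Eya2 at 6.49 to Eya1 at −3.10, and the right panel is led by Meox2 at 8.59.

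Of the cofactors that bind Pax proteins 5 of 18 tested (27.8%) were higher and 4 (22.2%) lower, beside 24.0% and 29.0% of all genes, with a median of 0.00. Meox1 and Meox2, homeobox proteins of the somite that bind Pax1 and Pax3, rose by 4.68 ± 0.59 (SE; limma, adjusted p = 0.000762) and 8.59 ± 0.71 (SE; adjusted p = 0.000124), Meox2 from 1 of 3 control arrays above background. The retinoblastoma gene Rb1 rose by 2.05 (adjusted p = 0.000613). Tle5, a short relative of the Groucho-type corepressors that the octapeptide of many Pax proteins binds, fell by 1.66 (adjusted p = 0.00125) and with its other probe by 1.97.

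Paired-class homeobox genes, relatives outside the family, had 6 of 14 tested higher and 2 lower, among 23 on the array, and their median was 1.79. Alx1, a craniofacial mesenchyme gene above background on 0 control arrays, was at least 3.72-fold higher on cΔex3 arrays (limma, adjusted p = 5.86e-05). That bound did not hold with normexp, where Alx1 differed by 0.69 on the log2 scale, or in the deposited values (1.49). The limb and skin mesenchyme genes Prrx1 and Prrx2 rose by 4.24 ± 0.45 (SE; adjusted p = 0.000344; another probe of Prrx1 by 5.50) and 5.54 ± 0.58 (SE; adjusted p = 0.000344), Prrx2 from 1 of 3 control arrays above background. Over the 3 partner lists 16 of 42 tested genes (38.1%) were higher and 7 (16.7%) lower, beside 24.0% and 29.0% of all genes. The fibroblast and adipocyte markers were higher on the same arrays, and their part in these counts was not tested.

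Genes of the tissues in which Pax genes act were counted in the same way. Over these lists 19 of 91 tested genes (20.9%) were higher and 31 (34.1%) lower, beside 24.0% and 29.0% of all genes. The kidney and urogenital genes of Pax2 and Pax8 had 7 of 18 higher and 3 lower, and their median was 0.94. Ret, the receptor of ureteric bud outgrowth whose expression needs Pax2, was above background on 0 control arrays. It was at least 37.5-fold higher on cΔex3 arrays (limma, adjusted p = 5.64e-05). That bound did not hold with normexp, where Ret differed by 3.12 on the log2 scale, or in the deposited values (3.72). Osr1 rose by 7.05 ± 0.52 (SE; adjusted p = 7.68e-05) and the podocyte and mesothelial factor Wt1 by 5.08 ± 0.39 (SE; adjusted p = 9.18e-05). Lhx1, of the nephric duct, fell by 2.23 (adjusted p = 9.34e-05).

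Of the 7 thyroid genes 4 were tested, 1 (25%) higher and 2 (50%) lower, beside 24.0% and 29.0% of all genes. Tshr, the thyrotropin receptor, stood at 1.96, 1.69, 2.12 and 0.57 on cΔex3 arrays and was above background on 0 control arrays, at least 155-fold higher (limma, adjusted p = 9.3e-06; its other probe differed by 6.47). That bound did not hold with normexp, where Tshr differed by 5.36 on the log2 scale, or in the deposited values (6.05). Unlike Pax8 its lowest cΔex3 value was on array 4. Hhex and Foxe1 fell by 3.69 (adjusted p = 0.000606) and 1.64 (adjusted p = 0.00127), and thyroglobulin (Tg), at 1.07 (adjusted p = 0.318), did not pass. Tshr is also expressed by fat cells, whose marker list was higher on the same arrays.

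The sclerotome, cartilage and thymus genes of Pax1 and Pax9 had 6 of 13 (46.2%) higher and 3 (23.1%) lower, beside 24.0% and 29.0% of all genes. Their median was 0.40. Matrix Gla protein (Mgp), an inhibitor of calcification, rose by 5.37 ± 0.24 (SE; limma, adjusted p = 1.27e-05), and the forkhead genes Foxc1 and Foxc2 by 3.78 (adjusted p = 8.26e-05) and 3.75 (adjusted p = 0.000272). Tbx18, of the sclerotome boundary and of dermal papilla precursors, rose at least 8.39-fold (adjusted p = 0.000128), a bound not met with normexp (1.51 on the log2 scale) or in the deposited values (2.28). The muscle precursor genes of Pax3 and Pax7 had 2 (15.4%) higher and 6 (46.2%) lower of 13. Met, the receptor of migrating muscle precursors and also of hepatocytes, fell by 3.32 ± 0.23 (SE; adjusted p = 5.44e-05), and Myf6 by 1.72 (adjusted p = 0.00167), while desmin (Des) rose by 2.25 (adjusted p = 0.00139). Lbx1 fell by 0.88 (adjusted p = 0.00595) relative to the 75th percentile, while its signals of 49.6 to 63.4 on control and 57.0 to 89.1 on cΔex3 arrays overlapped, and its call was lost in the deposited values (−0.37) and with arrays of 1 mouse.

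Of 8 melanocyte genes tested beside Pax3, 0 were higher (limma) and 2 (25%) lower, where 24.0% and 29.0% of all genes were. Dct, a melanin synthesis enzyme, stood at 3.77, 4.37 and 0.97 on control arrays and 0.28, −3.44, −1.61 and −1.35 on cΔex3 arrays, with control array 3 well under the other 2, and fell by 4.57 ± 1.07 (SE; adjusted p = 0.0104). Tyrosinase (Tyr) fell by 1.19 (adjusted p = 0.00129), while Kit at 0.64 (adjusted p = 0.057) and Pmel at 0.90 (adjusted p = 0.0609) did not pass. The Tyr signals, 279 to 385 on control and 265 to 420 on cΔex3 arrays, overlapped. The B lymphocyte genes of Pax5 had 1 (7.14%) higher and 3 (21.4%) lower of 14. The 1 higher was Ebf1, the early B cell factor that also acts in fat cells and mesenchyme, at 7.30 ± 0.38 (SE; adjusted p = 2.03e-05). Cd79a, a part of the B cell receptor, fell by 0.53 (adjusted p = 0.024), Fcer2a by 0.76 (adjusted p = 0.00946) and Vpreb1 by 1.14 (adjusted p = 0.035), and these calls were lost in 8, 1 and 5 of 18 other settings.

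Islet genes of Pax4 and Pax6 had 1 (7.14%) higher and 7 (50%) lower of 14, beside 24.0% and 29.0% of all genes. Isl1 was at least 7.24-fold higher (limma, adjusted p = 0.000267). That bound did not hold with normexp, where Isl1 differed by 1.01 on the log2 scale, or in the deposited values (1.64). Somatostatin (Sst) fell by 2.16 (adjusted p = 0.00019), Ins1 by 1.26 (adjusted p = 0.00133) and Nkx2-2 by 1.40 (adjusted p = 0.00195). The signals of Ins1 (61.8 to 85.8 on control and 56.6 to 86.5 on cΔex3 arrays) and Nkx2-2 (311 to 445 and 252 to 452) overlapped. Of 7 eye and neural genes tested 1 (14.3%) was higher and 5 (71.4%) lower, around a median of −3.76. The lens crystallin gene Cryaa, a known target of Pax6, stood at 0.93, 1.11 and 1.02 on control arrays and at −3.31, −3.98, −3.90 and −4.13 on cΔex3 arrays, a fall of 4.85 ± 0.23 (SE; adjusted p = 1.5e-05). The difference was −4.65 for Neurog2 (adjusted p = 2.66e-05), −6.26 for Lhx2 (adjusted p = 0.00022) and −3.76 for Fabp7 (adjusted p = 0.00191), Lhx2 and Neurog2 being above background on 2 and 3 of the 4 cΔex3 arrays. Pax4 and Pax6 themselves were not above background on the arrays where these genes differed.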

How the data were processed

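Total RNA of the sorted cells was amplified, labelled with Cy3 and hybridised to the SurePrint G3 mouse array, per the labels' protocols, and read with Agilent Feature Extraction 10.7.1.1, per the file headers. Spot intensity, as deposited by the authors, was taken from the processed signal, from which local background and a spatial trend had been removed per the file headers, with no scaling between arrays. Marks of outliers, saturation and signal well above background came with each spot. A series table of log2 values, also deposited by the authors, had columns of near-equal median (7.611 to 7.627 over the probes used) that correlated at 0.9955 or more with normexp values. How it was made is not stated in the sources used here, and its background offset stays unknown.

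The processed signal was put on a log2 scale and each array's 75th percentile subtracted, with outlier spots left out and spots of 1 probe averaged. A probe counted as above background where over 0.5 of its spots were, and was tested where this held on at least 3 of 7 arrays (42458 probes, 18030 genes by their brightest probe). Accessions were named through RefSeq (GRCm38.p6). The arrays are annotated on another build, so no probe position is given. Groups were compared with limma 3.58.1 in R 4.3.3 (two-sided, no covariate, Benjamini-Hochberg over all genes, threshold 0.05). Every adjusted p printed comes from this fit, except that of the other Paxx probe. That value, the SE of each Pax member and the differences of other probes come from the same model fitted to the 42458 tested probes. There the Benjamini-Hochberg step ran over these probes. "At least N-fold" sets the brighter group's mean against the dimmer arrays' lowest signal among probes well above background, or the probe's own where higher; the adjusted p beside it belongs to the fitted difference. A gene given with such a bound passed the filter only through its brighter group. Its fitted difference and adjusted p lean on values near background in the dimmer group. The fit was tested on simulated data. It called 15% of genes changed by 1 on the log2 scale, 56% of those changed by 2, and 0.0281% of unchanged genes. A gene that did not pass may therefore still differ.

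The members, lists and named genes were chosen with earlier results of these data known. Of each list the text names the up to 4 tested genes with the smallest p, called Eya, Dach and sine oculis genes, the 5 genes most like a member by Pearson's r, and 3 tested genes on each side of Pax2; Cdh16, Emx2, Epcam and Lrp2 were added once their values were known, and 2 genes that the rule chose are not reported here. The 18 alternatives were normexp, quantile and median scaling, other filters and probe rules, the deposited values, each array left out, arrays of 1 mouse, and blocks of replicate number and slide row. The normexp alternative used median spot and background intensity (offset 50). Same-numbered arrays of the groups did not deviate together (r = −0.01, 0.00 and 0.02), so the numbers do not pair them. The labels call the arrays biological replicates of separate mice.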

Additional observations from a re-analysis of the deposited data

Results flagged for a closer look

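Of 86 genes whose 4 cΔex3 arrays were checked for an array standing apart (Dixon's test at the 95% level), 3 had one, where chance alone marks about 1 in 20 such groups. All 3 were cΔex3 array 4. Dach1 stood there at 2.27 relative to the array's 75th percentile, with the nearest other cΔex3 array at 0.97. Sema4g, the neighbour of Pax2, stood at −2.84 with the nearest at −3.73. Slu7, a splicing factor gene among those most like Pax3, stood at 1.07 with the nearest at 1.39. Dach1 and Sema4g lay above the other cΔex3 arrays and Slu7 below them.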

How the results depend on the processing

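Over 18 alternatives 0 results changed sign past the threshold. Of 1412 values for the 79 genes named by rule, 1339 stayed on their side of the threshold, 52 lost their call and 21 gained one. Among values that did not pass, the direction could change, as for Paxx, which ran from −0.18 to 0.93. With normexp the Pax differences were −10.49 for Pax2, −0.83 for Pax1 and −0.04 for Pax3, and in the deposited values −9.78 for Pax2, −0.05 for Pax1, −0.16 for Pax5 and −0.90 for Pax7. Pax8 lost its call in both, and Pax5 lost its call in the deposited values. Which members passed the threshold thus depended on the setting, and no member's call is read as a test. With arrays of 1 mouse only, Pax7 was at −1.56, 2478 genes were higher over the whole table, and 11 lineage genes were higher and 20 lower, with fewer arrays in the fit. The cause of the other changes was not tested. Leaving out 1 array gave −11.66 to −10.98 for Pax2, 2.52 to 4.33 for Pax8, −1.44 to −1.31 for Pax7, −0.95 to −0.82 for Pax5, 0.28 to 0.62 for Pax3, −0.47 to −0.25 for Pax1 and −1.38 to −0.43 for Pax9, and 3255 to 4871 genes higher and 3900 to 5571 lower. Partner genes numbered 15 to 18 higher and 7 to 9 lower, and lineage genes 17 to 27 and 25 to 33. The replicate block pairs arrays by number only and leaves cΔex3 array 4 without a partner. With it 4493 genes were higher and 4980 lower, Pax8 was at 2.52 and Pax9 at −1.38. Leaving out cΔex3 array 4 gave the same values for Pax8 and Pax9. With no filter all 9 members were fitted, though Pax4 and Pax6 did not count as above background on any array. Signals near background limit Pax1, Pax5 and Pax9, and members never above it have no difference.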
